A study of Mus musculus with 32 samples.

Results

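The 9 genes described here encode 6 subunits of AMP-activated protein kinase (AMPK), 2 kinases that act on it and a coactivator downstream of it. They were chosen by name from the 53700 genes in the table of read counts: the catalytic subunits *Prkaa1* and *Prkaa2*, the scaffold subunits *Prkab1* and *Prkab2*, the nucleotide-binding subunits *Prkag1* and *Prkag2*, the upstream kinases *Stk11* (LKB1) and *Camkk2*, and *Ppargc1a* (PGC-1alpha). All 9 passed the filter on low counts, with 13961 genes tested in all. Poly(A) RNA was sequenced from kidneys of 32 male C57BL/6 mice of the iKspCre-Pkd1del line, in which a tamoxifen-inducible Cre under a tubule-specific promoter removes exons 2 to 11 of *Pkd1*. The 8 wildtype mice carried the same alleles but received no tamoxifen and were 109 days old. The 12 PKD mice received tamoxifen (150 mg/kg by gavage on postnatal days 18 and 19) and were 95 days old. The 12 PKD + Salsalate mice had the same induction and age, with chow holding 2.5 g/kg of salsalate, a prodrug of salicylate, from day 81. Per the paper, the mice of both cystic groups were chosen from a larger number for a similarly mild cystic phenotype. The measure was kidney weight relative to body weight, taken after the treatment. Wildtype mice thus differed from the cystic groups in tamoxifen and age as well as in *Pkd1*, and these cannot be told apart. Because the whole kidney was sequenced, fewer cells of a type and less RNA per cell cannot be told apart either.

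AMPK is a sensor of cellular energy. Its gamma subunit binds AMP, ADP and ATP, its alpha subunit phosphorylates enzymes of lipid, glucose and protein metabolism, and its beta subunit holds the complex together. LKB1, bound to its partners STRAD and MO25, phosphorylates the alpha subunit when energy is low, and CaMKK2 does so when calcium rises. Salicylate binds complexes that contain the beta subunit encoded by *Prkab1*. PGC-1alpha is a substrate of AMPK and coactivates genes of mitochondrial biogenesis and fatty acid oxidation, which supply most of the ATP of the proximal tubule. The counts measure mRNA, not the amount or phosphorylation of the proteins.

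The total count on genes lay between 11193136 and 109807664 per kidney. Library names ended in R for 5 wildtype kidneys and without it for the other 3, and no cystic kidney had the ending. What the letter stands for was not given in the sources used here. In the 5 libraries ending in R, 13.2% to 15.7% of the alignments lay on no gene, against 7.6% to 9.77% in the 3 others, 7.65% to 16.4% in PKD and 7.87% to 11.9% in PKD + Salsalate kidneys. The ranges of these wildtype sets did not overlap for 6 of the 9 genes and for 43.8% of all genes tested, so values against wildtype are also given for each set. Marker genes of the proximal tubule were high in every kidney, at a summed CPM (counts per common library size, with factors from the trimmed mean of M-values) of 17875 to 36321 in wildtype, 24170 to 31531 in PKD and 19437 to 30759 in PKD + Salsalate kidneys. The *Pkd1* count, which includes the exons that are not deleted, was 53.1 to 86.4 CPM in wildtype and 70.7 to 113 CPM in PKD kidneys, so it does not check the deletion.

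Per kilobase of exon, *Stk11* had the highest level of the 9 genes, with a median of 32.2 CPM per kilobase over the 32 kidneys. *Prkag1* followed at 21.0, *Prkab1* at 18.3, *Ppargc1a* at 10.8 and *Prkaa2* at 9.27 CPM per kilobase. The ranges of neighbours in this order overlapped. All 32 kidneys then had less *Prkaa1* (median 3.96 CPM per kilobase) than the lowest had *Prkaa2*. The levels of *Prkaa1*, *Prkag2* (3.86) and *Camkk2* (2.54) overlapped from neighbour to neighbour, and *Prkab2*, at a median of 0.994 CPM per kilobase, lay below them without overlap. In every kidney, then, the catalytic mRNA with the higher level per kilobase was *Prkaa2*, the scaffold mRNA was *Prkab1* and, of *Prkag1* and *Prkag2*, the nucleotide-binding mRNA was *Prkag1*. The remaining gamma subunit gene, *Prkag3*, is described with the AMPK-related kinases.

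**Figure D1:**
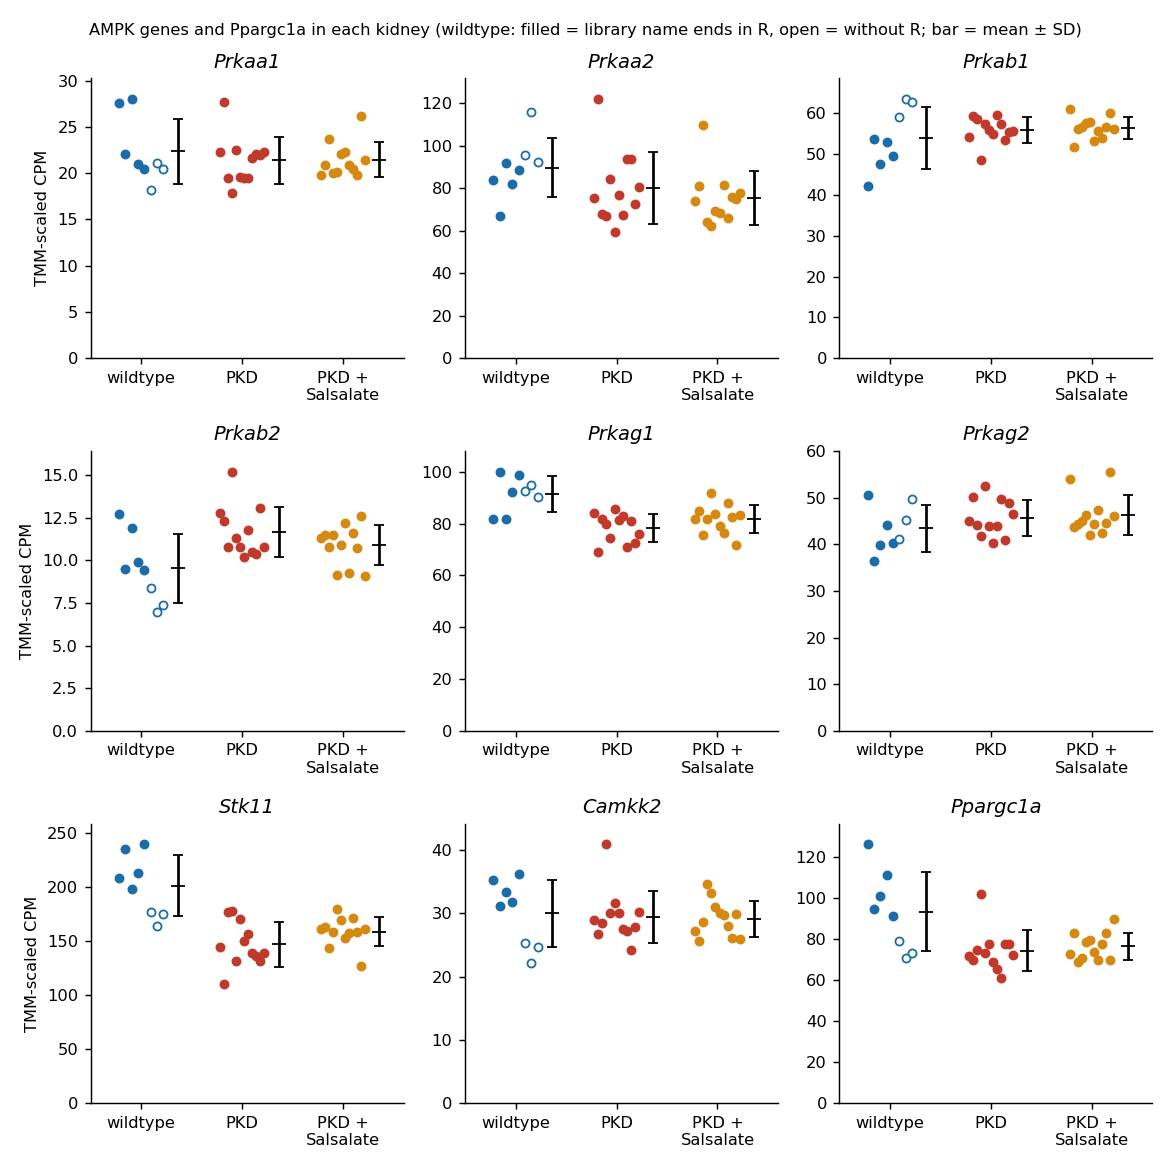
TMM-scaled CPM (vertical axes, from 0) of the 9 genes in each of the 32 kidneys, by group. Points are kidneys, bars are mean ± SD, and open wildtype points are the 3 libraries whose names do not end in R. These 3 lie apart from the 5 others for 6 genes, while PKD and PKD + Salsalate kidneys overlap for all 9.

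The first comparison asked how the AMPK genes differed between cystic and wildtype kidneys. With an adjusted p under 0.05 taken as a call, 4 of the 9 genes were called between PKD and wildtype, against 49.1% of all genes tested. *Prkab2* rose, as did 24.1% of all genes, and *Prkag1*, *Stk11* and *Ppargc1a* fell, as did 25.0%. *Prkaa1*, *Prkaa2*, *Prkab1*, *Prkag2* and *Camkk2* did not pass. The median log2 fold change of the 9 genes was -0.06, beside -0.01 over all genes tested. For no gene of the 9 were all PKD kidneys outside the wildtype range, which held for 7.28% of all genes. The share of the 9 genes called was thus near that of all genes. At an unadjusted p under 0.05 the count was also 4, against 55.3% of all genes. Against the 5 libraries ending in R, 5 of the 9 genes were called (59.6% of all genes), and against the 3 others 4 were called (40.8%). The PKD range lay apart from that of the libraries ending in R for 1 gene of the 9 (20.6% of all genes) and from that of the 3 others for 2 (23.1%).

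*Prkag1* (ENSMUSG00000067713, GRCm39 chromosome 15, 98710177 to 98729434, minus strand) encodes a nucleotide-binding subunit. Its lowest, median and highest values were 81.6, 92.2 and 100 CPM in wildtype, 68.9, 80.4 and 85.7 CPM in PKD, and 71.7, 82.3 and 91.7 CPM in PKD + Salsalate kidneys. All 12 PKD kidneys lay below the wildtype median, and 8 of them below the lowest wildtype kidney. *Prkag1* changed by -0.23 on the log2 scale in PKD kidneys (standard error 0.05, adjusted p = 0.000519). With wildtype limited to libraries ending in R the value was -0.22 (adjusted p = 0.00288), and with the 3 others it was -0.25 (adjusted p = 0.00411), whose range of 90.3 to 94.9 CPM lay above every PKD kidney. *Prkag1* was the 1 gene of the 9 called with the same sign against each wildtype set, which held for 19.6% of all genes. It was also called under each of the 13 other settings and with any of the 32 kidneys left out, with log2 fold changes from -0.25 to -0.20.

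*Stk11* (ENSMUSG00000003068, GRCm39 chromosome 10, 79951597 to 79966520, plus strand) encodes LKB1. It had the largest fall of the 9 genes in the fit to all wildtype libraries. Wildtype kidneys held 164, 203 and 239 CPM (lowest, median and highest), PKD kidneys 110, 142 and 178, and PKD + Salsalate kidneys 127, 159 and 179. All 12 PKD kidneys were below the wildtype median and 9 were below the lowest wildtype kidney. The log2 fold change was -0.46 (standard error 0.08, adjusted p = 1.83e-05). The 5 libraries ending in R had 198 to 239 CPM, above every PKD kidney, and the fold change against them was -0.58 (adjusted p = 6.16e-07). The 3 others had 164 to 177 CPM, inside the PKD range, and the value against them was -0.24 (adjusted p = 0.0639), which did not pass.

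*Ppargc1a* (ENSMUSG00000029167, GRCm39 chromosome 5, 51611592 to 51725068, minus strand), the coactivator of mitochondrial genes, differed still more between the wildtype sets. Its lowest, median and highest levels were 70.6, 92.9 and 126 CPM in wildtype, 61.1, 72.7 and 102 in PKD, and 68.8, 75.5 and 89.9 in PKD + Salsalate kidneys. Of the 12 PKD kidneys, 11 lay below the wildtype median and 4 below the lowest wildtype kidney. The log2 fold change was -0.33 (standard error 0.09, adjusted p = 0.00262) with all wildtype libraries and -0.50 (adjusted p = 7.01e-06) with those ending in R. Against the 3 others, at 70.6 to 78.9 CPM, it was -0.01 (adjusted p = 0.945). The highest PKD value, 102 CPM, belonged to PKD replicate 4, the PKD kidney with the largest share of alignments on no gene (16.4%). With that share as a covariate, a fit added after the data were seen, the log2 fold change was -0.21 (adjusted p = 0.0016).

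*Prkab2* (ENSMUSG00000038205, GRCm39 chromosome 3, 97565509 to 97581146, plus strand), the scaffold subunit with the lower level, was the gene that rose. Wildtype kidneys had 6.98, 9.47 and 12.7 CPM, PKD kidneys 10.2, 11.0 and 15.2, and PKD + Salsalate kidneys 9.11, 11.1 and 12.6. All 12 PKD kidneys were above the wildtype median. The log2 fold change was 0.30 (standard error 0.09, adjusted p = 0.00845). Against the 3 libraries without R, at 6.98 to 8.40 CPM and below every PKD kidney, it was 0.61 (adjusted p = 7.64e-05). Against the 5 ending in R, at 9.42 to 12.7 CPM, it was 0.13 (adjusted p = 0.241) and did not pass.

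*Prkab1* and *Camkk2* were called in opposite directions against the wildtype sets. *Prkab1* (chromosome 5, 116151645 to 116162567, minus strand) had 42.1 to 53.7 CPM in the libraries ending in R, 59.2 to 63.5 in the 3 others and 48.5 to 59.7 in PKD kidneys. Its log2 fold change in PKD was 0.18 against the former (adjusted p = 0.00404) and -0.15 against the latter (adjusted p = 0.0261), and 0.05 against all 8 (adjusted p = 0.478). *Camkk2* (chromosome 5, 122869233 to 122917739, minus strand) showed the reverse order of the sets, with 31.2 to 36.2 CPM, 22.2 to 25.4 CPM and, in PKD kidneys, 24.2 to 40.9 CPM. Its log2 fold change was -0.19 with the R set as reference (adjusted p = 0.0428), 0.27 with the other set (adjusted p = 0.0337) and -0.03 with all 8 libraries (adjusted p = 0.825). The highest *Camkk2*, *Prkab2*, *Stk11* and *Ppargc1a* levels among PKD kidneys were all those of replicate 4. The part of library kind in these values was not tested.

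The catalytic subunits did not pass in this fit. *Prkaa1* (chromosome 15, 5173186 to 5211750, plus strand) had 18.2, 21.1 and 28.0 CPM in wildtype, 17.8, 21.8 and 27.7 in PKD, and 19.8, 20.9 and 26.2 in PKD + Salsalate kidneys (lowest, median and highest). The log2 fold change in PKD was -0.06 (95% interval -0.21 to 0.10, adjusted p = 0.566). *Prkaa2* (chromosome 4, 104886845 to 104967102, minus strand) had 66.8, 90.3 and 116 CPM in wildtype, 59.6, 76.1 and 122 in PKD, and 62.4, 74.5 and 110 in PKD + Salsalate kidneys, with a log2 fold change in PKD of -0.16 (-0.39 to 0.06, adjusted p = 0.224). Against the libraries ending in R (66.8 to 91.9 CPM) it was -0.04 (adjusted p = 0.78), and against the 3 others (92.6 to 116 CPM) it was -0.35 (adjusted p = 0.063). The highest *Prkaa2* values in the cystic groups were those of the deepest libraries, PKD replicate 2 (47213530 counts) and PKD + Salsalate replicate 3 (109807664 counts). Without these 2, *Prkaa2* was called lower in PKD, at -0.23 (adjusted p = 0.0239), and with the library total as a covariate it was -0.24 (adjusted p = 0.0246). With the share of alignments on no gene as a covariate it was -0.28 (adjusted p = 0.00341), and all 3 of these fits were added after the data were seen. *Prkag2* (chromosome 5, 25067728 to 25306439, minus strand) had 36.4 to 50.6 CPM in wildtype, 40.4 to 52.5 in PKD and 42.1 to 55.6 in PKD + Salsalate kidneys, and its log2 fold change in PKD was 0.07 (-0.05 to 0.20, adjusted p = 0.338).

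**Figure D2:**
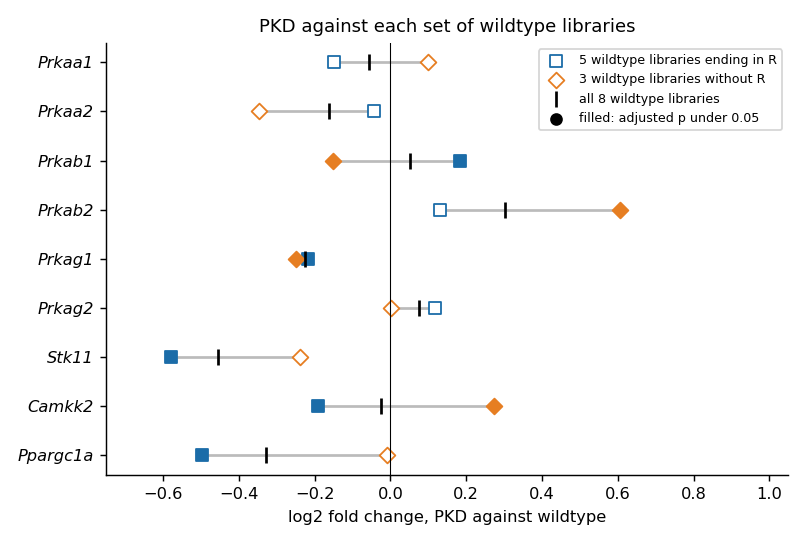
Log2 fold change of PKD against wildtype (horizontal axis) for each of the 9 genes, against the 5 wildtype libraries ending in R (squares), the 3 without R (diamonds) and all 8 (bars). Filled symbols have an adjusted p under 0.05; the symbols of *Prkag1* nearly coincide, those of *Prkab1* and *Camkk2* lie on opposite sides of 0, and *Ppargc1a* spans from -0.50 to -0.01.

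The promoters of the 4 genes called between PKD and wildtype in the fit to all wildtype libraries are shown. Of these genes, only *Prkag1* was also called against each wildtype set. Each line gives the 250 bases before and 50 after the start of transcription from RefSeq on GRCm38.p6, a different build from the gene positions above. All 9 genes matched this table. Capitals mark letters of a searched motif on either strand: GGGCGG for the box bound by SP1 (GC box), CCAAT for the box of that name, CCGGAAG for the site of ETS factors, TGACGTCA for the cAMP response element, CACGTG for the E-box and TCAAGGTCA for the site of estrogen-related receptors (ERR).
Prkag1, chr15:98831459-98831758, minus strand: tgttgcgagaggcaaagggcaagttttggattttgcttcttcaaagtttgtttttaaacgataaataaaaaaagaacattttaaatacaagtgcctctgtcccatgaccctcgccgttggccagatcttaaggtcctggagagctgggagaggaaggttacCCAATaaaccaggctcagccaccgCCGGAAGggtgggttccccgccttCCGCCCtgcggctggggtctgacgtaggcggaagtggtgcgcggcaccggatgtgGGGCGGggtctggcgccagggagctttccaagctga
Stk11, chr10:80115545-80115844, plus strand: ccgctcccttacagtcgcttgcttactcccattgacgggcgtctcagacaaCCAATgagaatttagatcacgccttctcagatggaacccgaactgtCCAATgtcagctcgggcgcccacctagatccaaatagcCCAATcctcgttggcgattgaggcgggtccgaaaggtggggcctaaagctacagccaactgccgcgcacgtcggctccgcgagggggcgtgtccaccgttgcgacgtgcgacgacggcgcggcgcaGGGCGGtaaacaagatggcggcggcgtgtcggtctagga
Ppargc1a, chr5:51567676-51567975, minus strand: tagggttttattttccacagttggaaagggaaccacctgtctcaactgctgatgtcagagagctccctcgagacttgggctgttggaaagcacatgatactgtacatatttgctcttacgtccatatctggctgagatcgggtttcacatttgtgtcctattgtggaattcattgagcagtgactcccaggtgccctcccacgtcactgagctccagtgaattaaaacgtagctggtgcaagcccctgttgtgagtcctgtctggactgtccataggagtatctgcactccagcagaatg
Prkab2, chr3:97657962-97658261, plus strand: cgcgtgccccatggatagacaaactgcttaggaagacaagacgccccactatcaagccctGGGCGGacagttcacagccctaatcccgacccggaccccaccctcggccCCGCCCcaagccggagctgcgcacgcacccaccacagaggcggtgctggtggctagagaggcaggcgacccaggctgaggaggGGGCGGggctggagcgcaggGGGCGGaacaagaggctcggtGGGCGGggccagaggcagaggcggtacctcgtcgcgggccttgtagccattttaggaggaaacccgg
A GC box was in 35.7% of all 32851 windows of this length, a CCAAT box in 37.4%, an ETS site in 8.86%, an E-box in 7.15%, a cAMP response element in 1.79% and an ERR site in 0.423%. The *Prkag1* window held 2 GC boxes, 1 CCAAT box and 1 ETS site, and that of *Stk11* held 3 CCAAT boxes and 1 GC box. The *Prkab2* window held 5 GC boxes, and its GC content was 68%, beside 54.7% for *Prkag1* and 61.3% for *Stk11*. None of the searched letters was in the *Ppargc1a* window, which had a GC content of 48.7%. A match is a description of letters and not a measured site.

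The second comparison asked whether salsalate moved these mRNAs in cystic kidneys, among mice chosen after treatment for a similarly mild phenotype. None of the 9 genes was called between PKD + Salsalate and PKD, against 0.580% of all genes (81 genes). None had an unadjusted p under 0.05 either, which 10.3% of all genes had, and none was called by DESeq2, by limma-voom or under the other settings. The largest differences were 0.11 for *Stk11* (95% interval -0.04 to 0.26, adjusted p = 0.663), -0.10 for *Prkab2* (-0.27 to 0.07, adjusted p = 0.77) and -0.09 for *Prkaa2* (-0.29 to 0.11, adjusted p = 0.849), on the log2 scale. *Prkag1* was 0.06 higher (-0.03 to 0.16, adjusted p = 0.731). *Ppargc1a* differed by 0.04 (-0.12 to 0.20, adjusted p = 0.923), *Prkag2* by 0.02 (-0.10 to 0.14), *Prkab1* by 0.01 (-0.09 to 0.12), *Prkaa1* by 0.00 (-0.13 to 0.14) and *Camkk2* by -0.01 (-0.17 to 0.14). Every interval included 0, and the widest, that of *Prkaa2*, still allowed a fall of 0.29 or a rise of 0.11. Of the 12 PKD + Salsalate kidneys, 11 lay above the PKD median of *Stk11*, 8 above that of *Prkag1*, 8 above that of *Prkab1* and 8 above that of *Ppargc1a*. For *Prkaa1* and for *Prkaa2*, 8 of the 12 lay below it, and the groups overlapped for each of the 9 genes, as for all but 0.0287% of the genes tested.

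PKD + Salsalate and wildtype kidneys were compared last, and this comparison shares its kidneys with both others. *Prkag1*, *Stk11* and *Ppargc1a* were lower, 3 genes of the 9, against 44.9% of all genes called and 23.2% called lower. The log2 fold change was -0.16 for *Prkag1* (standard error 0.05, adjusted p = 0.00977), -0.35 for *Stk11* (standard error 0.08, adjusted p = 0.000714) and -0.29 for *Ppargc1a* (standard error 0.09, adjusted p = 0.00849). *Prkab2*, at 0.21, did not pass (adjusted p = 0.0752), and neither did *Prkaa2*, at -0.25 (adjusted p = 0.0635). *Prkag1* was called against each wildtype set, at -0.16 with the R set (adjusted p = 0.03) and -0.18 with the other set (adjusted p = 0.0377), as were 16.0% of all genes with the same sign. Its call in this comparison was lost with the replicate block (-0.15, adjusted p = 0.0529) and without a filter on low counts (-0.15, adjusted p = 0.0561). At an unadjusted p under 0.05, 5 of the 9 genes passed (52.1% of all genes). Against the libraries ending in R, 5 of the 9 were called (58.0% of all genes), and against the 3 others 4 (34.9%). With the latter, *Stk11* was at -0.12 (adjusted p = 0.385) and *Ppargc1a* at 0.04 (adjusted p = 0.795). Under the share of alignments on no gene as a covariate, *Ppargc1a* was no longer called (-0.11, adjusted p = 0.109), while *Prkaa2* (-0.42, adjusted p = 0.000101) and *Prkab2* (0.35, adjusted p = 0.000874) were.

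**Figure D3:**
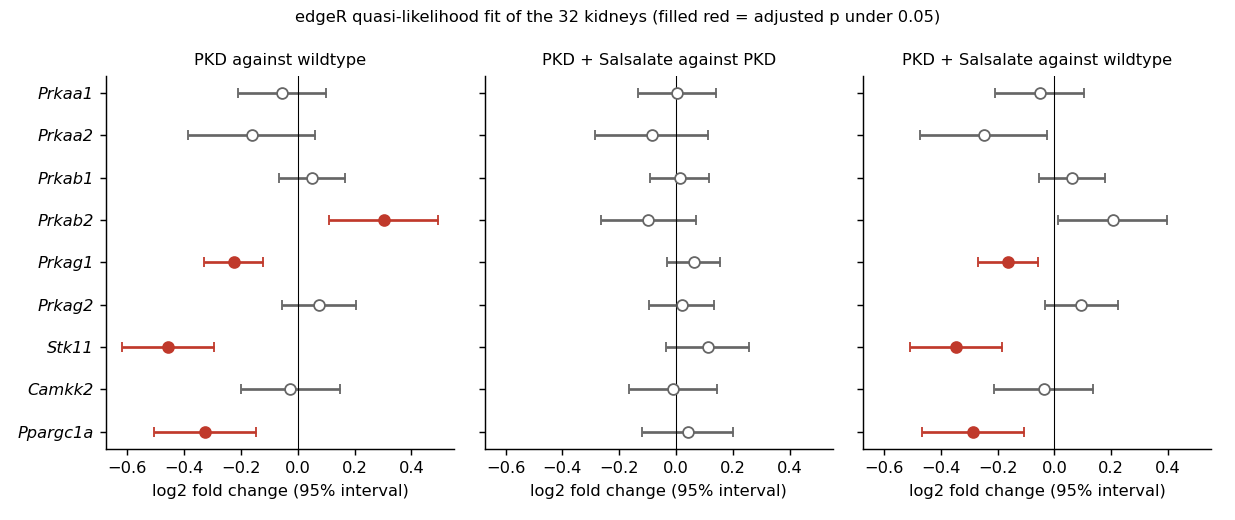
Log2 fold changes with 95% intervals (horizontal axes) of the 9 genes in the 3 comparisons, from 1 fit of all 32 kidneys. Filled red points have an adjusted p under 0.05: 4 genes for PKD against wildtype, 0 for PKD + Salsalate against PKD and 3 for PKD + Salsalate against wildtype.

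For *Prkag1* and *Prkag2*, the beta and the alpha isoforms, the balance within each pair was described by the log2 ratio of their CPM in each kidney, without a test. The ratio of *Prkag2* to *Prkag1* was -1.08 ± 0.24 (SD, n = 8) in wildtype, -0.78 ± 0.21 (SD, n = 12) in PKD and -0.82 ± 0.19 (SD, n = 12) in PKD + Salsalate kidneys, and the wildtype sets had means of -1.11 (R) and -1.03. The cystic kidneys thus had a mean ratio nearer to *Prkag2* than either wildtype set, by 0.30 for PKD against all wildtype kidneys. The ratio of *Prkab2* to *Prkab1* was -2.52 ± 0.50 in wildtype, -2.27 ± 0.22 in PKD and -2.38 ± 0.18 in PKD + Salsalate kidneys. Its wildtype sets stood at -2.21 (R) and -3.03, on either side of the PKD mean. For *Prkaa2* to *Prkaa1* the ratio was 2.00 ± 0.34, 1.89 ± 0.17 and 1.80 ± 0.20 in the same order, with 1.80 in the R set and 2.34 in the other. *Ppargc1a* exceeded its paralog *Ppargc1b* by 1.61 ± 0.25 in wildtype, 1.83 ± 0.26 in PKD and 1.80 ± 0.23 in PKD + Salsalate kidneys. PKD and PKD + Salsalate kidneys overlapped in all 4 ratios.

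**Figure D4:**
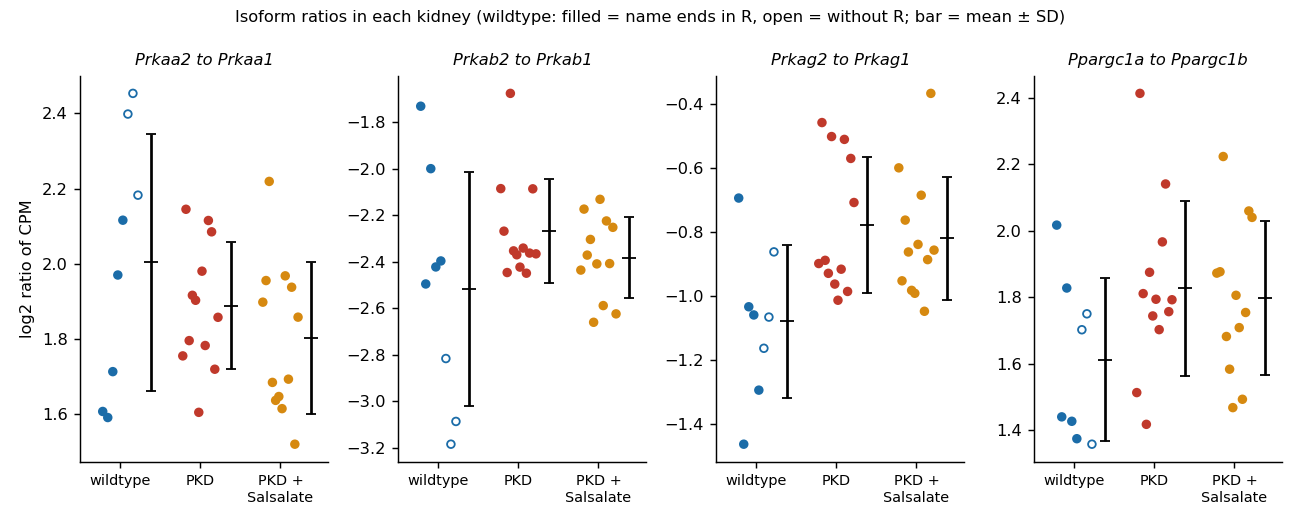
Log2 ratio of CPM (vertical axes) of the 3 pairs of AMPK isoforms and of *Ppargc1a* to *Ppargc1b* in each kidney, by group, with mean ± SD. Open wildtype points are the 3 libraries without R, which lie below all others for *Prkab2* to *Prkab1*; for *Prkag2* to *Prkag1* they lie among the 5 ending in R.

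Over the 32 kidneys, the Spearman rho of log2 CPM was 0.764 between *Prkag1* and *Stk11*, 0.718 between *Stk11* and *Ppargc1a* and -0.562 between *Prkab1* and *Ppargc1a*. These values describe kidneys of 3 groups and 2 wildtype sets together and carry no test. The genes nearest to each of the 9 by this measure were sought among all genes tested. They were *Ireb2* (0.767) and *Fmr1* (0.734) for *Prkaa1*, *Eaf1* (0.934) and *Klhl9* (0.918) for *Prkaa2*, and *Wiz* (0.818) and *Kremen1* (0.811) for *Prkab1*. For *Prkab2* they were *Tm6sf1* (0.762) and *Vav1* (0.724), for *Prkag1* *Akr7a5* (0.899) and *Mrpl2* (0.879), and for *Prkag2* *Abcc4* (0.819) and *Tm9sf2* (0.682). *Rabl6* (0.964) and *Mrps26* (0.955) were nearest to *Stk11*, *Paqr4* (0.867) and *Ankrd13d* (0.799) to *Camkk2*, and *Magt1* (0.903) and the mitochondrial ribosomal RNA gene *mt-Rnr1* (0.901) to *Ppargc1a*. Within PKD and within PKD + Salsalate kidneys, *Ppargc1a* was set against each of the other 8 genes, 16 relations in all, with 100000 permutations each. None passed Benjamini-Hochberg adjustment. The strongest by Pearson was with *Prkab1* in PKD kidneys (r = -0.8, permutation p = 0.00765, adjusted 0.122; rho = -0.476, permutation p = 0.121, adjusted 0.455), with r = -0.494 (permutation p = 0.147, adjusted 0.613) without the 2 kidneys farthest from the *Ppargc1a* median. With *Prkag1* in PKD + Salsalate kidneys, r was 0.633 (permutation p = 0.0266, adjusted 0.147), rho 0.727 (permutation p = 0.00974, adjusted 0.156) and r without the 2 farthest kidneys 0.786 (permutation p = 0.00771, adjusted 0.123).

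Genes around AMPK were read from 7 lists in the same fit of PKD against wildtype. Over the 151 genes tested in these lists, 23 rose and 50 fell (48.3% called), beside 24.1% of all genes that rose, 25.0% that fell and 49.1% called. Called with the same sign against each wildtype set were 19.6% of all genes, against which the counts for each set below are to be read. Of the 6 LKB1 and CaMKK partners, 1 rose and 2 fell. *Cab39l*, which encodes a form of MO25, the scaffold of LKB1, fell from 62.6 ± 4.89 CPM (SD, n = 8) in wildtype to 49.4 ± 6.18 CPM (SD, n = 12) in PKD kidneys, a log2 fold change of -0.34 (adjusted p = 0.000175) that was -0.32 and -0.38 against the libraries ending in R and the 3 others and passed against each. *Cab39*, the other MO25 gene, was at -0.18 (adjusted p = 0.00654; -0.25 and -0.08). *Camkk1*, the paralog of *Camkk2*, was at 0.37 (adjusted p = 0.0382; 0.19 and 0.66). Of the list, 1 gene was lower against each wildtype set. The list median was -0.06.

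Among the 13 AMPK-related kinases tested, which LKB1 also phosphorylates in most cases, 6 rose and 2 fell (61.5% called), with a median of 0.04. Against each wildtype set, 3 were higher and none lower. Their list also holds *Prkag3*, the remaining gamma subunit of AMPK, with which the median of its 14 genes was 0.13. *Prkag3* had 22.1, 26.2 and 31.8 CPM (lowest, median and highest) in wildtype, 19.6, 31.1 and 40.5 in PKD, and 19.6, 28.6 and 41.8 in PKD + Salsalate kidneys. These ranges overlapped, and the log2 fold change in PKD was 0.22 (adjusted p = 0.143; 0.11 and 0.40 against the wildtype sets). *Melk*, a kinase of dividing cells, rose from 0.127 to 0.760 CPM in wildtype kidneys to 1.31 to 4.05 CPM in PKD kidneys without overlap. Every wildtype kidney lay below the level the filter on low counts asks for, so *Melk* was tested only through its level in cystic kidneys. Its log2 fold change was 2.58 (standard error 0.29, adjusted p = 5.7e-09), which is thus no independent support for the rise. *Mark1*, a kinase of microtubule-associated proteins, rose by 0.59 (adjusted p = 0.0002; 0.49 and 0.74 against the wildtype sets) and *Brsk1* by 0.38 (adjusted p = 0.00649; 0.33 and 0.45). *Sik1*, a salt-inducible kinase, was at 0.62 over all wildtype libraries (adjusted p = 0.00668) but at 1.32 and -0.10 against the sets.

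Of 26 phosphatases and regulators of AMPK, 5 rose and 10 fell (57.7% called, beside 49.1% of all genes), with a median of -0.10. The calls held against each set for 2 that rose and 7 that fell, beside 19.6% of all genes. *Ak1*, an adenylate kinase that interconverts the nucleotides AMPK senses, fell from 35.3 ± 2.57 CPM (SD, n = 8) to 24.6 ± 2.08 CPM (SD, n = 12), and the ranges of 32.2 to 39.3 and 20.9 to 29.1 CPM did not overlap. Its log2 fold change was -0.52 (adjusted p = 4.06e-09; -0.58 and -0.43). *Ppm1f*, a phosphatase, was at -0.41 (adjusted p = 4.64e-05; -0.52 and -0.21), and *Lamtor1*, the lysosomal anchor of the Ragulator complex, at -0.37 (adjusted p = 6.44e-06; -0.44 and -0.25). *Lamtor4* of the same complex was at -0.68 (adjusted p = 0.00026) but at -0.98 and -0.01 against the sets.

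Of 29 AMPK substrates, 4 rose and 9 fell (44.8% called, beside 49.1% of all genes; median -0.08). Against each set 1 was higher and 2 were lower, beside 19.6% of all genes. *Cftr*, the chloride channel, rose from 1.12 to 3.18 CPM in wildtype to 3.74 to 7.68 CPM in PKD kidneys, a log2 fold change of 1.55 (adjusted p = 4.42e-08; 2.03 and 1.07). Its wildtype median, 1.72 CPM, lay below the level the filter on low counts asks for. *Cftr* thus passed the filter only with cystic kidneys, and its call is no independent support for the rise. *Srebf1*, a regulator of lipid synthesis, was at 0.59 (adjusted p = 0.000256; 0.88 and 0.19) and *Acacb*, an acetyl-CoA carboxylase, at -0.43 (adjusted p = 0.0373; -0.30 and -0.64). These 2 passed against 1 wildtype set each. Of 16 mTORC1 genes tested, 2 rose and 5 fell (43.8% called; median -0.05). Against each set 1 was higher and 2 were lower, and these shares were near those of all genes. *Rragd*, a Rag GTPase, was at -0.54 (adjusted p = 2.52e-06; -0.59 and -0.46), *Eif4ebp1*, an inhibitor of translation initiation, at 0.44 (adjusted p = 0.000161; 0.49 and 0.34), and *Deptor*, an inhibitor of mTOR, at -0.43 (adjusted p = 0.000574; -0.65 and 0.02). *Rps6kb1*, the S6 kinase, was at -0.37 (adjusted p = 0.0136) and was called in opposite directions against the sets (-0.65 and 0.26).

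Of 28 genes of the PGC-1 family and its partner factors, 3 rose and 9 fell (42.9% called, beside 49.1% of all genes), with a median of -0.09. Their list also holds *Fndc5*, described below with the salsalate comparison. With it, 10 of 29 fell, the median was -0.11, and 2 were higher and 5 lower against each set. *Perm1*, a regulator of oxidative metabolism in muscle, fell most, from 7.62 to 11.0 CPM in wildtype to 1.36 to 3.39 CPM in PKD kidneys. Its log2 fold change was -1.82 (standard error 0.15, adjusted p = 5.85e-12), and -1.90 and -1.70 against the wildtype sets. *Esrrb*, an estrogen-related receptor, was at -0.57 (adjusted p = 2.94e-06; -0.52 and -0.66), and *Ppargc1b* at -0.52 (adjusted p = 0.00309; -0.68 and -0.22, the latter not called). Of the 31 PGC-1alpha target genes tested, 2 rose and 12 fell (45.2% called; median -0.08), beside 24.1% and 25.0% of all genes. Against each set 1 was higher and 8 were lower, beside 19.6% of all genes. In opposite directions against the sets, 5 of these targets were called. So were 3 mTORC1 genes, 2 each of the phosphatases and regulators, the substrates and the PGC-1 family list, and 1 of the AMPK-related kinase list. The share of all genes called in opposite directions was not counted. *Sirt3*, the mitochondrial deacetylase, fell from 168 ± 24.0 CPM (SD, n = 8) to 109 ± 14.6 CPM (SD, n = 12), a log2 fold change of -0.62 (adjusted p = 4.49e-07; -0.74 and -0.42). *Mfn2*, which fuses mitochondria, was at -0.38 (adjusted p = 7.65e-06; -0.25 and -0.58), *Cox5b*, a cytochrome c oxidase subunit, at -0.37 (adjusted p = 0.00901; -0.45 and -0.22) and *Ucp2*, an uncoupling protein, at 0.58 (adjusted p = 2.47e-06; 0.70 and 0.38).

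Between PKD + Salsalate and PKD, 1 of the 151 genes tested in the 7 lists was called (0.662%), a share near the 0.580% of all genes. *Fndc5*, the precursor of irisin and a PGC-1alpha target in muscle, had 2.90, 3.42 and 4.82 CPM in wildtype (lowest, median and highest), 1.59, 1.87 and 3.01 in PKD and 2.37, 3.02 and 4.32 in PKD + Salsalate kidneys. It fell by 0.79 on the log2 scale in PKD against wildtype (adjusted p = 1.37e-05; -0.88 and -0.66 against the sets) and rose by 0.57 with salsalate against PKD (standard error 0.12, adjusted p = 0.0187). The PKD median lay below the level the filter on low counts asks for. *Fndc5* thus passed the filter through wildtype and PKD + Salsalate kidneys, where it was higher. The calls of *Fndc5* are therefore no independent support for the fall or the rise. With any of the 32 kidneys left out, 1 gene of its list was called, and 0 with the replicate block, the 1 other setting that changed this count. Skeletal muscle markers, none of which passed the filter on low counts, summed to at most 3.30 CPM in wildtype, 3.94 in PKD and 2.36 in PKD + Salsalate kidneys. *Perm1* was at 0.30 (adjusted p = 0.436) and *Melk* at -0.47 (adjusted p = 0.335) in this comparison.

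**Figure D5:**
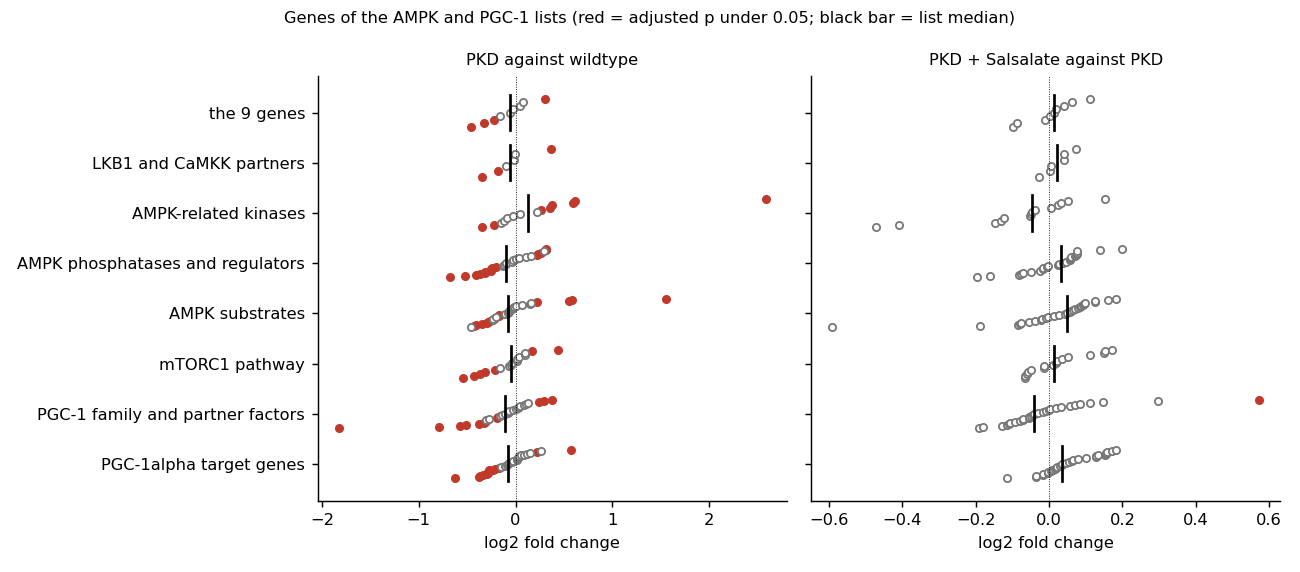
Log2 fold changes (horizontal axes, of different scale) of the 9 genes and of the genes of the 7 lists, for PKD against wildtype and PKD + Salsalate against PKD. Red points have an adjusted p under 0.05 and black bars are list medians; *Melk* (2.58), *Cftr* (1.55) and *Perm1* (-1.82) lie farthest out on the left panel, and *Fndc5* (0.57) is the 1 red point on the right.

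Markers of other cell types moved with the same groups. All 6 fibroblast and all 6 macrophage markers rose in PKD against wildtype, with summed levels of 288 to 437 and 673 to 1193 CPM for fibroblasts and 119 to 165 and 237 to 338 CPM for macrophages. All 6 markers of tubular injury rose, from summed levels of 161 to 324 CPM to 307 to 688 CPM. Among them, *Havcr1*, *Krt20* and *Sox9* had at most 1.78, 0.889 and 1.27 CPM in wildtype kidneys, below the filter level. They were tested only through their level in cystic kidneys, so their calls are no independent support. Most of the sum was *Clu*, at 214 ± 55.6 CPM (SD, n = 8) in wildtype and 381 ± 86.8 CPM (SD, n = 12) in PKD kidneys. All 3 markers of the distal convoluted tubule fell, from 1183 to 1592 CPM to 500 to 722 CPM, as did 4 of 4 podocyte markers. Of 7 collecting duct markers 3 fell (*Atp6v1g3*, *Slc4a1* and *Slc26a4*) and 1, the vasopressin receptor gene *Avpr2*, rose (0.38, adjusted p = 0.000571). The rise of *Avpr2* was not called against each wildtype set. The summed level of the 7 markers was 379 to 732 CPM in wildtype and 428 to 795 CPM in PKD kidneys. Called with the same sign against each wildtype set were 4 of the fibroblast, 6 of the macrophage, 5 of the injury, 3 of the distal convoluted tubule, 3 of the collecting duct and 1 of the podocyte markers. Of 10 proximal tubule markers, 2 rose and 2 fell, of 4 endothelial markers 2 rose and 1 fell, and of 4 markers of the thick ascending limb 1 fell. Against each wildtype set, 1 proximal tubule marker was lower, and 3 were called in opposite directions. For the endothelium 2 were higher and 1 lower against each set, and for the thick ascending limb 1 was lower and 1 was called in opposite directions. Of the podocyte markers 1 was called in opposite directions, and so was 1 of the collecting duct markers. Of 5 adipose markers tested 1 fell, and so did the 1 lymphocyte marker tested. The summed proximal tubule level was 17875 to 31899 CPM in the wildtype libraries ending in R and 31482 to 36321 CPM in the 3 others. Liver markers reached 4107 CPM in PKD replicate 10, against 75.3 to 208 CPM in wildtype kidneys. Of the 10 liver markers, 8 were tested, and 5 were called higher in PKD against wildtype with this kidney in the fit. Without it, 7 were called, of which 2 were higher and the rest lower. *Alb* had a PKD median of 2.7 CPM and a highest value of 1930, beside a wildtype median of 5.97, and it was the 1 liver marker called between PKD + Salsalate and PKD. With PKD replicate 10 left out, none of these markers was called there by edgeR's quasi-likelihood test. The part of these cells in the differences of the AMPK genes was not tested.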

How the data were processed

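Reads of poly(A) RNA were aligned by the authors with STAR 2.7.5a to GRCm39 after trimming with cutadapt 2.10, and counted by strand on Ensembl genes with HTSeq 0.12.4, per the study's methods and the submitters' processing notes. The deposited counts are whole numbers without normalization. The 5 summary lines per kidney, 16.9% to 26.4% of alignments, stayed out of totals and tests. At the lowest total, 1 CPM stands for about 11 counts.

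The filter kept the 13961 of 53700 genes that exceeded a log2 CPM of 1 in no fewer than 25% of kidneys, and counts were normalized with TMM. The 3 groups were fitted together by edgeR 4.0.16's quasi-likelihood method (R 4.3.3), tested 2-sided, with Benjamini-Hochberg adjustment over all genes tested and a threshold of 0.05. Groups and replicate numbers came from the sample labels and the R ending from library names. The method was tested on simulated data. Alternatives were DESeq2 1.42.0, limma-voom (limma 3.58.1), other size factors and filters, a replicate block, a fit of only the groups compared, each wildtype set and each kidney left out. Fits without the 2 deepest cystic libraries, or with the library total or the share of alignments on no gene as a covariate, were added after the data were seen.

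The 9 genes and the lists were chosen with earlier results of these data known. Named from each list were every gene called between PKD + Salsalate and PKD and up to 4 called between PKD and wildtype with the largest absolute log2 fold change, and for each of the 9 genes the 2 with the highest Spearman rho. Of these, 1 list gene is not reported here. Positions and exon lengths came from GENCODE mouse release 39, which held 52610 of the identifiers. Values are per mouse, and no 2 libraries of the same group agreed within sampling noise.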

Additional observations from a re-analysis of the deposited data

How the results depend on the processing

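Of the 9 genes, 4 were called between PKD and wildtype, and 4 to 5 with any kidney left out. Between PKD + Salsalate and PKD the count was 0, and 0 to 0 with any kidney left out. Between PKD + Salsalate and wildtype it was 3, 3 to 4 with any kidney left out, and 5 with limma-voom or only the libraries ending in R. The difference in the log2 ratio of *Prkab2* to *Prkab1* was 0.76 (PKD minus wildtype) and 0.65 (PKD + Salsalate minus wildtype) against the 3 libraries without R. The cause was not tested for these or the values below.

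Against wildtype libraries without R, the log2 fold change in PKD turned to 0.10 for *Prkaa1*, -0.15 for *Prkab1* and 0.27 for *Camkk2*, and in PKD + Salsalate to 0.11 for *Prkaa1*, -0.13 for *Prkab1*, 0.27 for *Camkk2* and 0.0376 for *Ppargc1a*. With the library total as a covariate, *Camkk2* turned to 0.0073 in PKD and 0.0036 in PKD + Salsalate. With the share of alignments on no gene, *Camkk2* turned to 0.0758 and 0.1157 against wildtype, *Prkab1* to -0.0093 in PKD + Salsalate, and *Prkaa1* (-0.0005), *Prkab1* (-0.0136) and *Camkk2* (0.0399) turned between PKD + Salsalate and PKD. Upper-quartile factors gave 0.0002 for *Camkk2* in PKD against wildtype and -0.0022 for *Prkaa1* between PKD + Salsalate and PKD. With any kidney left out, *Camkk2* ranged from -0.0784 to 0.0168 in PKD and from -0.0897 to 0.0053 in PKD + Salsalate against wildtype. Between PKD + Salsalate and PKD, *Prkaa1* ranged from -0.0207 to 0.0451, *Prkab1* from -0.0046 to 0.0230, *Prkag2* from -0.0013 to 0.0402 and *Camkk2* from -0.0334 to 0.0372.

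*Prkaa2* was called lower in PKD + Salsalate than in wildtype under 8 of 13 other settings (values over the 13 from -0.43 to -0.13), and in PKD without PKD replicate 2 (-0.2339). *Prkag1* was not called in PKD + Salsalate against wildtype without a filter (-0.1455, adjusted p = 0.0561). Of all log2 fold changes of the 9 genes with 1 kidney left out, 840 kept their direction and side of the threshold, 18 turned and 6 newly passed. Under the other settings 307 did so, 19 turned, 18 newly passed and 7 no longer passed. Of the counts over gene lists, 45 with 1 kidney left out and 71 under other settings moved by over 1.5 times.

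Replicate numbers do not pair the mice: deviations of same-numbered kidneys correlated between -0.574 and 0.485 (28 pairs, 8 over 0.1), and 4 kidneys matched best with their own number. With the replicate block, 4, 0 and 2 of the 9 genes were called, *Prkag1* not in PKD + Salsalate against wildtype (-0.1471, adjusted p = 0.0529), *Camkk2* turned to 0.0193 and 0.0104 against wildtype, and 48 genes of the table were called between PKD + Salsalate and PKD.

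That count of 81 was 199 with DESeq2, 146 with limma-voom, 195 with only the groups compared, 145 and 257 with each wildtype set, 51 without the 2 deepest cystic libraries, 583 with the share of alignments on no gene, and 39 to 226 with any kidney left out. It moved by over 1.5 times without PKD replicates 1 (47), 9 (49) or 11 (46) and without PKD + Salsalate replicates 1 (49), 5 (39), 6 (53), 11 (226) or 12 (50).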

Other observations

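Exons of 5 of the 9 genes overlap a gene on the other strand, and reads were counted by strand. For *Prkag1*, 38.8% of the exon sequence overlaps the long non-coding RNA *B130046B21Rik*, which had at most 11 counts in a kidney and at most 0.326% of the *Prkag1* count. *Prkag2* overlaps *2900005J15Rik* over 9.35% of its exon sequence, and that RNA reached 15.6% of the *Prkag2* count. *Stk11* overlaps *Cbarp*, a regulator of calcium channels, over 4.76%, with up to 12.6% of its count.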
